A study of Bos taurus with 8 samples.

Results

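The genes described here encode 41 enzymes that break down amino acids in the liver, and they were measured in the livers of fetal calves whose dams had received low nutrition (LN) or high nutrition (HN). The members were named by hand by their role, with earlier results of these data known. A member was measured through array probes whose RefSeq accession belonged to the gene. Of the 41 members, 38 had a probe and 3 (UROC1, MCCC2 and HIBCH) are not analysed here. In the whole data set 12603 genes had a matched probe, and 10860 of them, with all 38 members among these, had a probe detected above background.

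The fetuses were Japanese Black cattle, taken at 8.5 months of gestation (day 260 ± 8.3 in the methods). The dams of the 4 LN fetuses (L5, L6, L8 and L9) were given feed covering 60% of requirement, and the dams of the 4 HN fetuses (L1, L2, L3 and L10) feed covering 120%, so that no group on the exact requirement was present. By the methods, the pregnancies came from male-sorted semen of the same sire, and fetuses were picked by weight, the light end of LN and the heavy end of HN. The groups therefore differ in fetal size by selection as well as in maternal feed. Each array held 1 fetus in the sample labels, although the series' design text speaks of RNA pooled by group. All LN arrays lay on the same slide and all HN arrays on another, scanned apart, and the effect of slide or scan cannot be told apart from that of maternal nutrition.

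The liver is the main organ that removes the amino group of most amino acids. Transaminases move the group to glutamate or alanine, deaminases release it as ammonia for the urea cycle, and dedicated chains of enzymes then carry the carbon skeletons into glucose, ketone bodies or the citric acid cycle. Tyrosine, tryptophan, histidine and lysine are degraded largely in liver, while the transamination of branched-chain amino acids takes place mostly in muscle and other tissues, and their keto acids are oxidised in liver. Many of these enzymes are induced in liver around birth and by fasting hormones.

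The liver identity of the samples was checked on 8 hepatocyte genes fixed as a list, of which 7 were detected. Their summed log2 signal lay between 20.83 and 20.87 in LN and between 20.83 and 20.89 in HN, a range that quantile normalization holds narrow for the brightest probes. Erythroid genes, which mark the blood-forming cells of fetal liver, had 4 of 8 members detected, all with a higher mean in LN (median difference 1.18 on the log2 scale). EPB42, SLC4A1 and KLF1 of this list were below detection. The summed log2 signal of the erythroid list was 12.52 in LN fetus L5 and between 8.14 and 8.79 in the other LN fetuses, against 7.53 to 9.09 in HN. Neutrophil genes were higher in LN for 5 of 6 members (median difference 0.85), with summed log2 signals of 12.60 to 13.80 in LN and 12.04 to 13.31 in HN. The median differences of the Kupffer cell, endothelial, stellate, cholangiocyte and lymphocyte lists lay between -0.16 and 0.12, with MS4A1 of the lymphocyte list below detection. The part of these cell types in the enzyme differences was not tested. In whole liver RNA, fewer cells of a type and less RNA per cell cannot be told apart.

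Over the 38 measured enzymes, 26 had a lower mean log2 signal in LN than in HN and 12 a higher one. The share that was lower was 68.4%, against 48.4% of the 10860 genes. Of 36 other detected genes of the same pathways, 52.8% were lower. The members were chosen with earlier results of these data known, so shares of this list are descriptive and test nothing. The median LN minus HN difference of the enzymes was -0.11, against 0.0075 for all genes. A difference of more than 1.25-fold towards lower signal in LN was found for 8 enzymes, or 21.1%, against 8.63% of all genes. These were HPD, KMO, PIPOX, AGXT, GPT, SARDH, FTCD and PRODH. No enzyme (0) was more than 1.25-fold higher, against 7.82% of all genes. These counts rested in part on single fetuses and on the processing. With normexp background correction 6 enzymes were more than 1.25-fold lower, against 4.56% of all genes, and GPT, SARDH and PRODH were no longer among them. Without L8, 11 enzymes were more than 1.25-fold lower and 2, HAL and DBT, more than 1.25-fold higher, against 10.5% and 9.03% of all genes. SDS passed the higher limit without L2 or without L3, and MCCC1 without L10.

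By limma, 0 of 38 enzymes passed an adjusted p of 0.05, and the same held for all genes (0%). The lowest adjusted p among the enzymes was 0.760. At an unadjusted limma p of at most 0.05, FTCD, PIPOX and HPD were lower in LN, where 2.75% of all genes were, and MCCC1 was higher, where 3.3% of all genes were. Together these 4 enzymes are 10.5% of the measured members, against 6.05% of all genes. Every LN fetus lay outside the range of the HN fetuses for 1 enzyme, FTCD. This is 2.63% of the enzymes, a share under the 4.14% of all genes. With 4 fetuses against 4, the smallest p that a 2-sided exact permutation test can give is 0.0286. The p-values measure the spread between fetuses on the same slide and hold no measure of the spread between slides.

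**Figure D1:**
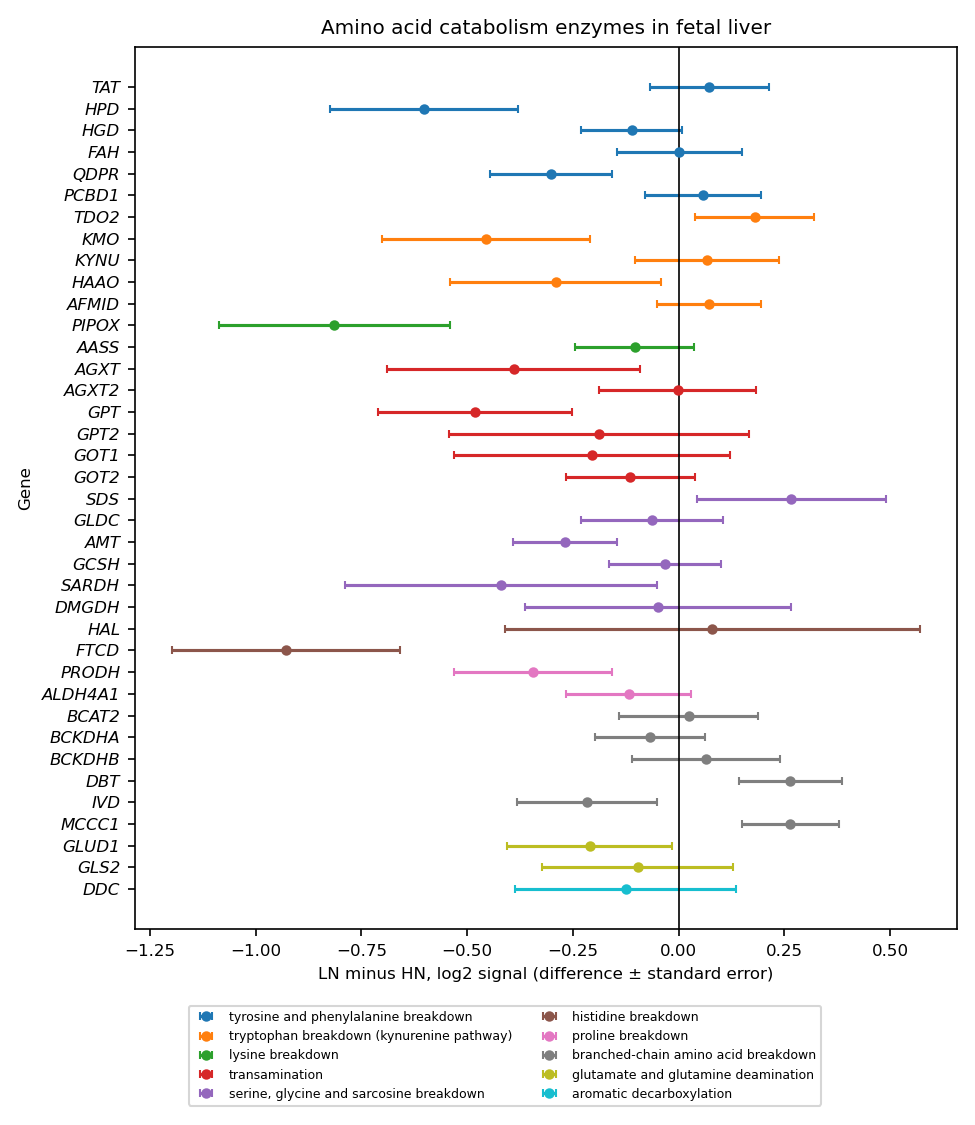
LN minus HN difference of each measured enzyme in log2 signal (x axis) by gene (y axis), with limma's standard error as bars, n = 4 fetuses in each group, and colours for the role groups. The points reach from -0.93 for FTCD to 0.27 for SDS, and 26 of 38 lie below 0.

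In histidine breakdown, 1 of 2 measured members, FTCD, had a lower mean signal in LN. FTCD (formimidoyltransferase cyclodeaminase, NM_001205399) carries the last step, in which histidine's carbon becomes glutamate and a one-carbon group passes to folate. Its log2 signal was 12.45 in L5, 13.34 in L6, 13.18 in L8 and 13.35 in L9 among the LN fetuses. In HN it was 13.70 in L1, 14.33 in L2, 13.57 in L3 and 14.42 in L10. The highest LN fetus, L9, lay below the lowest HN fetus, L3, so the groups did not overlap.

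The mean log2 signal of FTCD was 13.08 ± 0.43 in LN and 14.01 ± 0.43 in HN (SD, n = 4 each). The difference was -0.93 (standard error 0.27, 95% interval -1.54 to -0.32), which is a signal in LN 0.525 times that in HN (exact permutation p = 0.0286, limma adjusted p = 0.760). The lowest value was that of L5, the fetus with the highest erythroid signal, and without L5 the difference was -0.72. An unadjusted limma p of at most 0.05 was found under each of 17 alternative settings. FTCD had 1 detected probe, so its difference rests on that probe alone.

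HAL, histidine ammonia-lyase, which opens the same chain by releasing ammonia, differed by 0.080 with a standard error of 0.49. Its fetuses were widely spread, from 12.05 in L8 to 14.47 in L9 in LN and from 12.22 in L10 to 13.52 in L1 in HN. The 95% interval of its difference, -1.03 to 1.19, therefore holds differences as large as that of FTCD in either direction.

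In lysine breakdown, PIPOX (NM_001014878), the peroxisomal oxidase of pipecolate and sarcosine, had log2 signals of 10.55 in L5, 9.88 in L6, 11.12 in L8 and 10.76 in L9. In HN they were 11.49 in L1, 11.62 in L2, 10.89 in L3 and 11.56 in L10. The groups overlapped through L8 and L3 alone. The difference was -0.81 (standard error 0.27, 95% interval -1.44 to -0.19), and the exact permutation p was 0.0571 (limma adjusted p = 0.760). The second probe of PIPOX differed by -0.66. Leaving out any of the 8 fetuses kept the difference of the first probe between -0.995 and -0.58. AASS, the enzyme with paired activities that opens the main saccharopine route of lysine, differed by -0.10 with a standard error of 0.14, less than its spread between fetuses.

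In tyrosine and phenylalanine breakdown, LN had the lower mean for 3 of 6 enzymes and the higher for 3, and the median difference was -0.055. The count lower ranged from 3 to 6 over the 17 alternatives, and the median from -0.19 to -0.018. HPD (NM_001015611), the dioxygenase that turns hydroxyphenylpyruvate into homogentisate, had log2 signals of 11.64 in L5, 10.97 in L6, 11.72 in L8 and 11.21 in L9. The HN fetuses had 12.04 in L1, 12.04 in L2, 11.53 in L3 and 12.34 in L10. L3 lay among the LN fetuses, below L5 and L8, and the other HN fetuses lay above all of LN. The difference was -0.60 (standard error 0.22, 95% interval -1.11 to -0.096), with an exact permutation p of 0.0857 and a limma adjusted p of 0.760. The second probe differed by -0.52. The unadjusted limma p was at most 0.05 under 11 of 17 alternative settings, and not with array position as a block.

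TAT, tyrosine aminotransferase (NM_001034590), which starts tyrosine breakdown, was read by 3 probes that did not point the same way. The brightest probe gave 12.76 in L5, 13.04 in L6, 12.81 in L8 and 12.67 in L9, against 12.89 in L1, 12.84 in L2, 12.46 in L3 and 12.80 in L10. The LN and HN fetuses were intermingled, and the difference was 0.073 (limma standard error 0.14, 95% interval -0.25 to 0.39, adjusted p = 0.945 by limma and p = 0.629 by exact permutation). The other probes differed by -0.28 and -0.51. Their mean with the brightest probe gave -0.24, and leaving out L6 or L3 also turned the sign of the brightest probe, to -0.00073 and -0.022. No direction can therefore be given for TAT from these probes. The paper lists TAT and PIPOX among its downregulated genes and checked them by qPCR, which is not part of these data.

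The enzymes after HPD in the tyrosine chain had smaller differences. HGD, which opens the ring of homogentisate, differed by -0.11 with a standard error of 0.12, and its 4 probes lay between -0.17 and -0.11. FAH, fumarylacetoacetase, the last step of the chain, differed by 0.0019 with a standard error of 0.15. QDPR and PCBD1 regenerate tetrahydrobiopterin, a cofactor of aromatic amino acid hydroxylation. QDPR differed by -0.30 with a standard error of 0.14, and all 3 of its probes had a lower mean in LN. PCBD1 differed by 0.058 with a standard error of 0.14.

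**Figure D2:**
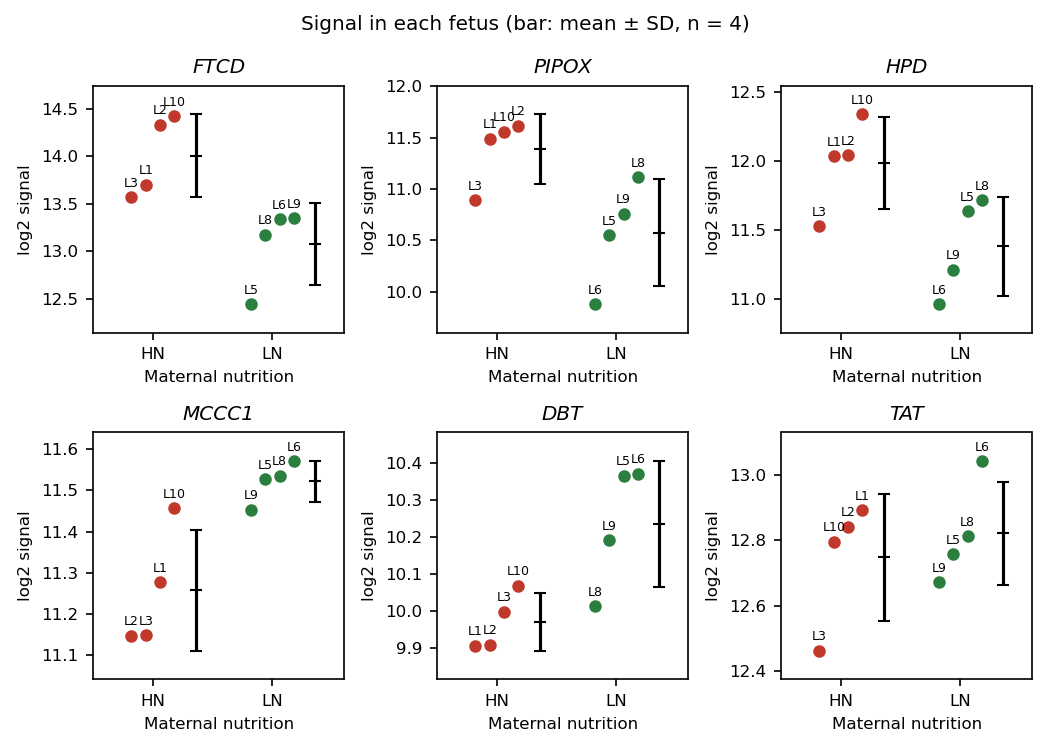
Log2 signal (y axis) of each fetus by maternal nutrition (x axis) for FTCD, PIPOX, HPD, MCCC1, DBT and TAT, with the mean ± SD of the 4 fetuses beside the points. The groups are apart for FTCD, while L3 of HN lies among the LN fetuses for PIPOX and HPD, and LN and HN mix for TAT; y axes do not start at 0.

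In the kynurenine pathway of tryptophan, LN had the lower mean for 2 of 5 enzymes, and the median difference was 0.067. The sign of this median turned under some of the 17 alternatives (range -0.038 to 0.13, with 2 to 3 lower). TDO2, the dioxygenase that commits tryptophan to this pathway, was 11.50 ± 0.14 in LN and 11.32 ± 0.21 in HN (SD, n = 4 each), a difference of 0.18 with a standard error of 0.14, which was 0.096 without L2. KMO, which hydroxylates kynurenine, was 8.61 ± 0.41 in LN and 9.06 ± 0.36 in HN, a difference of -0.46 with a standard error of 0.25. The early enzyme and KMO pointed in opposite directions, and neither difference passed the test. HAAO, which follows later in the pathway, differed by -0.29 with a standard error of 0.25, and by -0.15 without L6 and -0.51 without L3. KYNU and AFMID, which cleave kynurenine and formylkynurenine, differed by 0.067 and 0.072, less than their standard errors.

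The transamination group was formed of GPT, GPT2, GOT1, GOT2, AGXT and AGXT2, while the aminotransferases TAT and BCAT2 were placed with the chains they open and differed by 0.073 and 0.024, with signs that turned under some alternatives. All 6 members of the transamination group had a lower mean in LN, with a median difference of -0.20 and a range of -0.48 to -0.0022, while none passed the test. GPT, the cytosolic alanine aminotransferase, had log2 signals from 6.04 in L6 to 6.68 in L8 in LN and from 6.47 in L3 to 7.21 in L10 in HN. L1, at 6.62, and L3 lay within the range of the LN fetuses. The difference was -0.48 with a standard error of 0.23 (limma adjusted p = 0.787). AGXT, which removes glyoxylate in the peroxisome by transamination with alanine, differed by -0.39 with a standard error of 0.30, and its second probe by -0.40. L6, at 9.24, was the lowest fetus for AGXT, and without it the difference was -0.16.

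GOT1 and GOT2, the cytosolic and mitochondrial aspartate aminotransferases, differed by -0.20 and -0.11, with standard errors of 0.33 and 0.15. GPT2, the mitochondrial alanine aminotransferase, differed by -0.19 with a standard error of 0.35. AGXT2, the mitochondrial relative of AGXT, differed by -0.0022 with a standard error of 0.19. The common direction within the transamination group was not kept in every setting: without HN fetus L1, which had the highest GOT1 and GPT2 signals, 3 of 6 were lower and the median was -0.037.

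In serine, glycine and sarcosine breakdown, LN had the lower mean for 5 of 6 enzymes, and the median difference was -0.055. Over the 17 alternatives, 3 to 5 were lower and the median lay between -0.18 and -0.0026. AMT, the aminomethyltransferase of the glycine cleavage system, was 11.84 ± 0.12 in LN and 12.11 ± 0.15 in HN (SD, n = 4 each). Its difference was -0.27 (limma standard error 0.12, adjusted p = 0.785 by limma and p = 0.0571 by exact permutation), and its 4 probes differed by -0.27, -0.30, -0.43 and -0.68. The partners of AMT in the same enzyme system were closer to 0. GLDC, the decarboxylase, differed by -0.062 with a standard error of 0.17, and GCSH, the lipoyl carrier, by -0.032 with a standard error of 0.13.

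SARDH and DMGDH demethylate sarcosine and dimethylglycine in mitochondria. SARDH differed by -0.42 with a standard error of 0.37 and by -0.17 without L9, its lowest fetus, and DMGDH by -0.048 with a standard error of 0.31. SDS, the serine dehydratase that yields pyruvate, differed by 0.27 with a standard error of 0.22, a size close to those of DBT and MCCC1. Its difference was 0.037 with normexp background correction, 0.091 with scaling to the 75th percentile and 0.061 without L1. It was spread more in HN, from 4.35 in L1 to 5.38 in L2, than in LN, from 5.09 to 5.42.

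PRODH, proline dehydrogenase, was 8.72 ± 0.37 in LN and 9.06 ± 0.12 in HN (SD, n = 4 each), a difference of -0.34 with a standard error of 0.19. L9, at 8.17, lay far below the other LN fetuses, and without it the difference was -0.16. ALDH4A1, the next enzyme on the way from proline to glutamate, differed by -0.12 with a standard error of 0.15, and its 3 probes were all lower. GLUD1, glutamate dehydrogenase, which releases ammonia from glutamate, differed by -0.21 with a standard error of 0.20 and by -0.063 without L10, and GLS2, the liver-type glutaminase, by -0.097 with a standard error of 0.23. DDC, which decarboxylates aromatic amino acids into amines, differed by -0.13 with a standard error of 0.26.

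The branched-chain amino acid enzymes had a median difference of 0.045, with 2 of 6 lower in LN. Under the 17 alternatives this median ran from -0.051 to 0.12, with 2 to 4 lower, so its sign was not kept. MCCC1 (NM_001205758), the biotin-bearing subunit of the carboxylase in leucine breakdown, had log2 signals of 11.53 in L5, 11.57 in L6, 11.54 in L8 and 11.45 in L9. In HN the signals were 11.28 in L1, 11.15 in L2, 11.15 in L3 and 11.46 in L10. The LN fetuses were close together, and L10 of HN lay just above the lowest of them, L9. The difference was 0.26 (standard error 0.11, 95% interval 0.0058 to 0.52), a signal 1.20 times as high in LN (exact permutation p = 0.0571, limma adjusted p = 0.785). The other probes of MCCC1 differed by 0.20 and 0.032, and the unadjusted limma p was at most 0.05 under 6 of 17 alternative settings, array position as a block not among them.

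DBT (NM_173905), the core transacylase of the branched-chain keto acid dehydrogenase, had log2 signals of 10.37 in L5, 10.37 in L6, 10.01 in L8 and 10.19 in L9. In HN the signals were 9.91 in L1, 9.91 in L2, 9.999 in L3 and 10.07 in L10. Only L8 of LN lay within the range of HN. The difference was 0.26 (limma standard error 0.12, 95% interval -0.012 to 0.54, adjusted p = 0.785 by limma and p = 0.0571 by exact permutation), but the second probe differed by -0.041. The second probe was above 10.2 in L6, L9, L3 and L10 and below 9.8 in L5, L8, L1 and L2, a division that runs across the groups.

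The other subunits of the same dehydrogenase differed less. BCKDHA differed by -0.068 with a standard error of 0.13 and BCKDHB by 0.065 with a standard error of 0.18. BCAT2, the mitochondrial branched-chain aminotransferase, differed by 0.024 with a standard error of 0.16. IVD, isovaleryl-CoA dehydrogenase, which stands just before the carboxylase of MCCC1 in leucine breakdown, differed by -0.22 with a standard error of 0.17, and by -0.078 without L10.

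**Figure D3:**
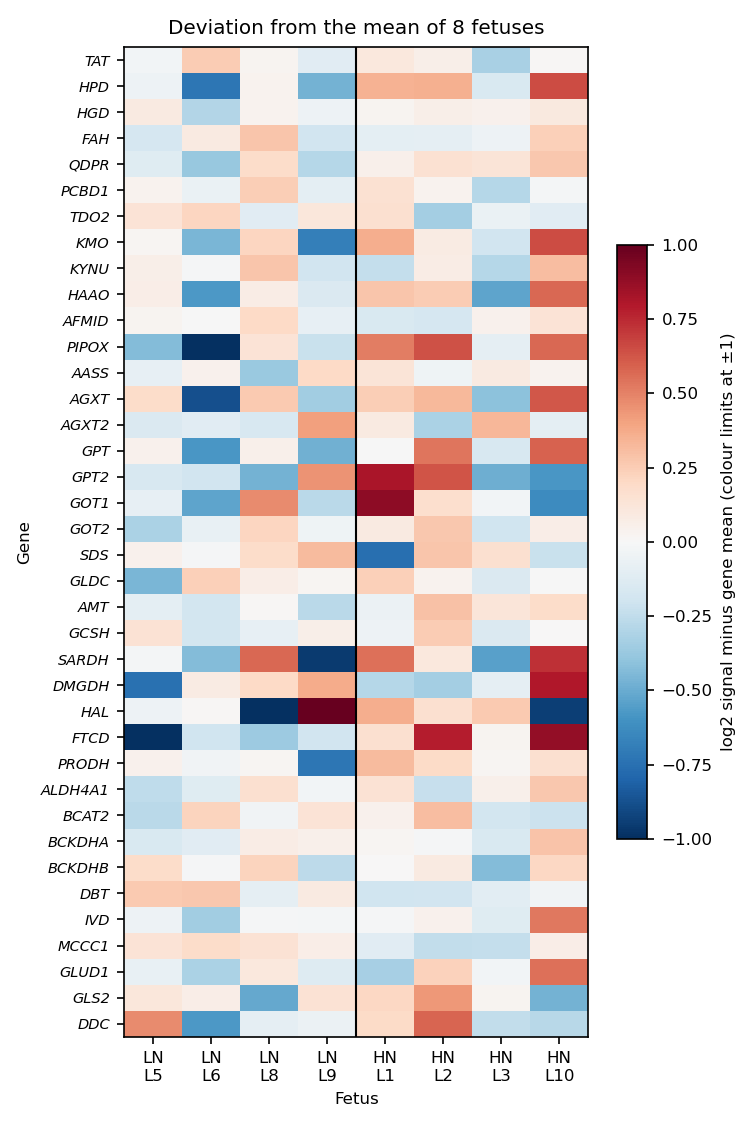
Log2 signal of each measured enzyme (rows) minus its mean over the 8 fetuses (columns, LN left and HN right of the line), with red above and blue below the mean and colours limited at ±1. L10 holds the highest value of 15 enzymes and L6 the lowest of 10, and L3 of HN is mostly on the blue side.

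The fetuses within a group differed among themselves over the enzymes. The median deviation of the 38 enzymes from their means was -0.038 in L5, -0.11 in L6, 0.071 in L8 and -0.070 in L9. In HN it was 0.10 in L1, 0.13 in L2, -0.11 in L3 and 0.15 in L10. L8 of LN was thus on the side of most HN fetuses, and L3 of HN on that of most LN fetuses. L10 had the highest signal of all fetuses for 15 enzymes and L6 the lowest for 10. Over all genes the same deviations stayed between -0.016 and 0.017. Quantile normalization holds this range narrow in advance, so it is no measure for the spread of the enzymes.

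Most single differences moved when 1 fetus was left out. Leaving out 1 fetus moved the difference of 29 of 38 enzymes by more than 1.5 times or turned its sign. The sign turned for 17, each with a difference smaller than its standard error, where a turn is easily reached. Those of FTCD, PIPOX, HPD, GPT, KMO, QDPR, AMT, DBT and MCCC1 stayed within 1.5 times. The counts of enzymes moved as well. With L3 left out, 31 of 38 enzymes were lower in LN, 6 of them at an unadjusted limma p of at most 0.05 (FTCD, GPT, HAAO, HPD, KMO and PIPOX), and 5 did not overlap between groups. The shares of all genes without L3 were 7.75% at that threshold in either direction and 9.39% without overlap. With L8 left out, 7 enzymes were lower at that threshold (AMT, FTCD, GPT, HPD, KMO, PIPOX and QDPR), 1 was higher (DBT) and 5 did not overlap, against 6.00% and 7.88% of all genes. By limma, 0 enzymes passed an adjusted p of 0.05 in any of these settings.

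Among enzymes with several probes, the dimmer probe tended to show the lower LN minus HN difference. In 17 of 22 enzymes with more than 1 detected probe (77.3%), the dimmest probe had a lower difference than the brightest, against 52.5% of 6687 genes. The median difference was -0.11 by the brightest and -0.25 by the dimmest probes of these enzymes, and 0.011 and 0.00034 over all such genes. For TAT, FAH, PCBD1, GCSH and DBT the probes pointed in both directions.

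**Figure D4:**
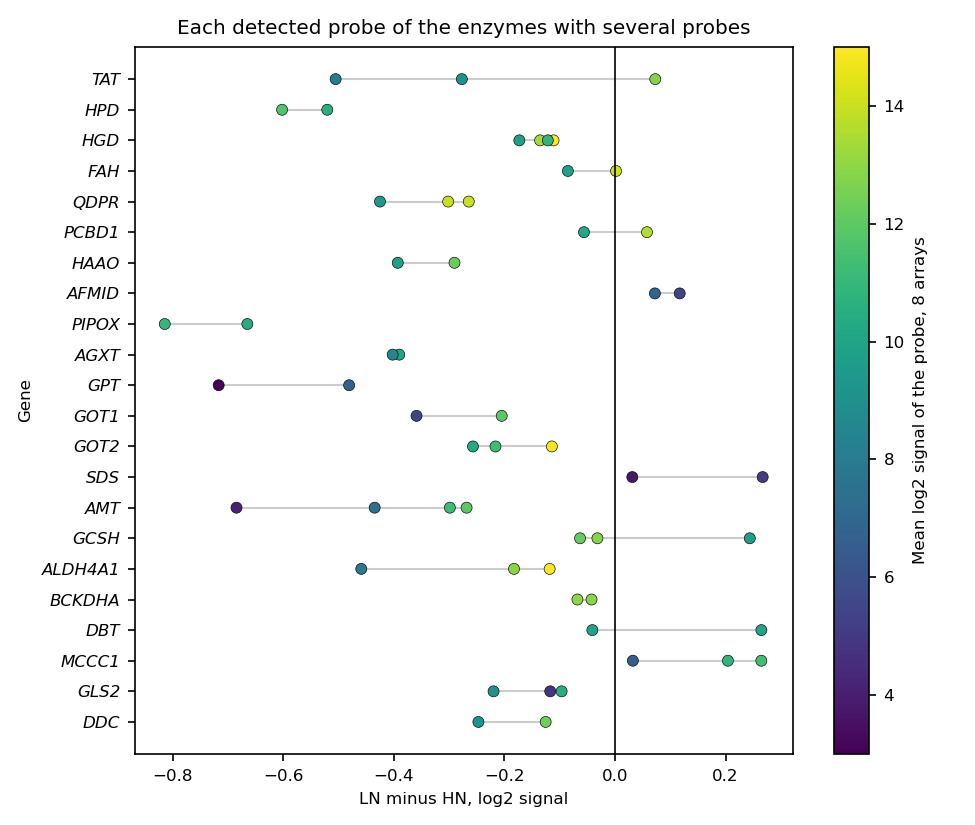
LN minus HN difference in log2 signal (x axis) of every detected probe of the 22 enzymes with more than 1 (y axis), coloured by the probe's mean log2 signal over 8 arrays; a grey line joins the probes of a gene. In 17 of 22 enzymes the dimmest probe lies left of the brightest, and the probes of TAT, FAH, PCBD1, GCSH and DBT lie on both sides of 0.

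This gap followed certain fetuses. The signal of the dimmest minus that of the brightest probe, as a median deviation from the gene's mean over the enzymes, was -0.25 in L6, -0.13 in L9 and -0.13 in L3, and between 0.064 and 0.17 in the other 5 fetuses. Over all 6687 genes the same 3 fetuses were below 0, at -0.090, -0.045 and -0.099. Of these fetuses, L6 and L9 are LN and L3 is HN. HGD shows the pattern most plainly: its dimmest probe read 9.10 in L6, 9.43 in L9 and 9.10 in L3, and between 10.11 and 10.21 in the other fetuses, while its brightest probe kept within 14.73 to 15.12. The dimmest probe of QDPR likewise read 8.55, 8.76 and 8.88 in L6, L9 and L3 and between 9.40 and 9.83 elsewhere.

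Leaving out L6, L9 and L3 together was a choice made after the data were seen, and it leaves 2 LN and 3 HN fetuses. In this setting 26 of 38 enzymes were lower in LN and the median difference was -0.15. These were not the same 26, since 6 enzymes (TAT, HGD, GOT1, HAL, BCAT2 and DDC) changed direction. FTCD then differed by -1.34, PIPOX by -0.72 and HPD by -0.46, and these 3 (7.89% of the enzymes) were those at an unadjusted limma p of at most 0.05, against 9.60% of all genes, so the share was not above that of all genes. MCCC1 differed by 0.24 and no longer met that threshold. The part of the gap in the enzyme differences was not tested.

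**Figure D5:**
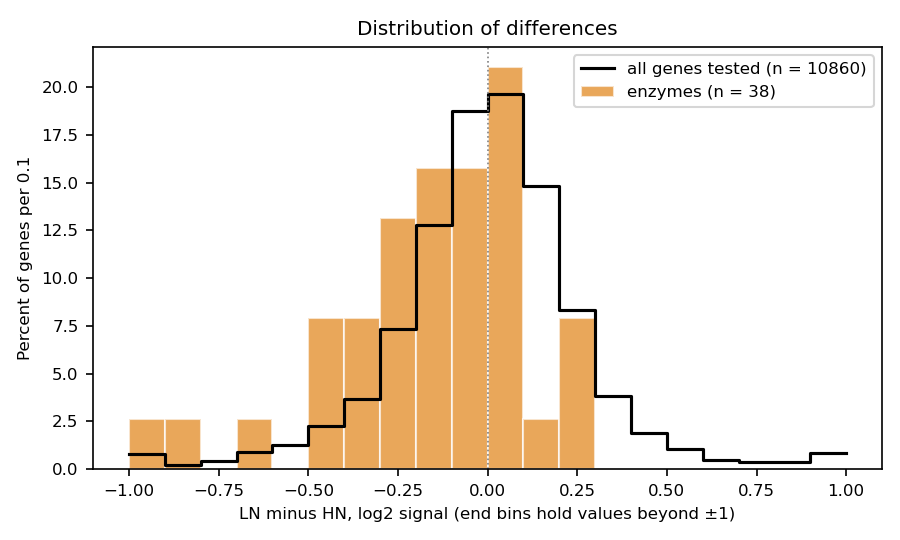
Percent of genes (y axis) in bins of LN minus HN difference of width 0.1 in log2 signal (x axis), for the 38 enzymes as bars and all 10860 genes as a line, the end bins holding values beyond ±1. The bars lie mostly to the left of 0, where 26 of 38 enzymes and 48.4% of all genes are, and none lies beyond 0.3.

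A further 40 genes of the same pathways that are not among the members were listed, and 36 of them had a detected probe. Of these, 19 were lower and 17 higher in LN, with a median difference of -0.018. More than 1.25-fold lower were 4 of the 36, and more than 1.25-fold higher 2, against 8.63% and 7.82% of all genes. At an unadjusted limma p of at most 0.05, 1 was lower and 1 higher, or 2 of 36, against 6.05% of all genes in either direction. GNMT, the abundant liver enzyme that methylates glycine to sarcosine, was 9.97 ± 0.31 in LN and 10.55 ± 0.34 in HN (SD, n = 4 each), a difference of -0.58 (limma standard error 0.21, adjusted p = 0.760 by limma and p = 0.0857 by exact permutation).

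ASRGL1, an asparaginase, was higher by 0.36 (standard error 0.15, limma adjusted p = 0.785). ACMSD, which diverts the kynurenine pathway from NAD synthesis, differed by -0.41, and HIBADH, of valine breakdown, by 0.24. Without overlap between the groups was 1 of these 36 genes, against 4.14% of all genes. It was BCKDK, the kinase that inactivates the branched-chain keto acid dehydrogenase, at -0.16 (standard error 0.11, exact permutation p = 0.0286), singled out after its values were seen, and its highest LN fetus, at 12.118, lay just below its lowest HN fetus, at 12.122. PCBD2, IDO2, AUH and ASPG are not analysed here.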

How the data were processed

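One-colour Agilent bovine arrays were hybridised with fetal liver RNA of the LN and HN groups, 4 arrays each. The authors deposited scanner output (Feature Extraction 11.0.1.1), whose background-subtracted spot intensities are not normalized between arrays, and a table of log2 values for 31068 probes. These are the probes well above background on every array, and the values equal their quantile normalized log2 intensities to within 5e-07 when spots are averaged before log2 (0.0423 when averaged as log2, as here), so scale, centring and direction are known. The median of each of its columns is 8.07.

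Here log2 intensities without control and outlier spots were averaged per probe and quantile normalized over 43637 probes, with 16 left out. Of 43803 spots per array, 32635 to 33371 in LN and 33254 to 34369 in HN were well above background and 0 were saturated. Precision is limited by the number of arrays. Detected probes (33439) were those well above background on 4 arrays or more. RefSeq accessions matched 26743 of 43653 probes to genes of assembly ARS-UCD2.0, and coordinates are left out because the array was designed on another build. The detected probe with the brightest mean stood for its gene. Groups were tested with limma 3.58.1 (R 4.3.3; lmFit, eBayes, 2-sided) and Benjamini-Hochberg adjustment over detected probes, among which 2113 had an unadjusted p of at most 0.05 and the lowest adjusted p was 0.634. Exact permutation tests were 2-sided over all divisions into 4 and 4. In simulated data of 10860 genes, an adjusted p of 0.05 recovered 58.5% of 200 genes with a log2 change of 1 and 88% of 200 with a change of 2, and called 0 when none was changed. The simulation had independent noise, 1 probe per gene and no slide effect, and adjusted over 10860 genes where the reported test adjusted over 33439 probes. Its rates are therefore not those of the reported test.

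Values in every fetus are given for members with an unadjusted p of at most 0.05, no overlap, a difference of at least 0.5, or probes of opposite sign with a size of at least 0.25, and for TAT and PIPOX, which the paper names. Of the other pathway genes, those with the 5 lowest p were to be named, of which 1 is not reported here, and BCKDK is named besides. The members and lists were chosen with earlier results of these data known. Alternatives were 75th percentile scaling, normexp (offset 50, on medians), the authors' log2 table, no filter or detection on all 8 arrays, trend and robust eBayes, array position as a block, the mean of a gene's probes and each fetus left out. Leaving out L6, L9 and L3 together was added after seeing the data. APOB, GYPB, MARCO, SOX9 and CD79B of the marker lists had 0 matched probes.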

Additional observations from a re-analysis of the deposited data

Results flagged for a closer look

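In 7 of 76 groups of 4 fetuses, 1 fetus lay far from the other 3 of its group for an enzyme, where chance sets apart about 1 in 20 groups. In HN, the log2 signal of FAH was 14.33 in L10 and at most 14.04 in the other fetuses. PIPOX was 10.89 in L3 of HN and at least 11.49 in the others. HAL was 12.22 in L10 of HN, against at least 13.32 in the others. In LN, AGXT2 was 9.76 in L9 and at most 9.24 in the others. PRODH was 8.17 in L9 of LN, against at least 8.86 in the others. IVD was 12.77 in L6 of LN and at least 13.06 in the others. GLS2 was 10.04 in L8 of LN, with at least 10.62 in the others.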

How the results depend on the processing

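No paired analysis was possible because the groups share no replicate numbers. Array position, which holds 1 LN and 1 HN array at each place of the slides, was run as a block and left 2 enzymes lower at an unadjusted limma p of at most 0.05, FTCD and PIPOX (5.26% of enzymes, against 4.61% of all genes in either direction). Under 17 alternatives, 0 enzymes passed an adjusted p of 0.05, and the median enzyme difference stayed between -0.17 and -0.076. Each fetus left out in turn moved the median from -0.14 to -0.076, the enzymes lower in LN at an unadjusted limma p of at most 0.05 from 2 to 7, those higher from 0 to 1 (3.76% to 7.75% of all genes in either direction; without L2, without L6 or without L9 the enzymes' share, 5.26%, was under the 5.76%, 5.86% and 5.40% of all genes), and those without overlap from 1 to 5, where 5.55% to 9.39% of all genes did not overlap. It also moved the enzymes more than 1.25-fold lower from 7 to 11 and those higher from 0 to 2 (7.78% to 10.7% and 6.80% to 9.96% of all genes). The count lower was 5 with normexp and 5 with trend and robust eBayes. The count higher was 2 with normexp, 2 without a filter on dim probes and 2 with trend and robust eBayes, and 0 with array position as a block, 0 with the mean of all probes and 0 with L6, L9 and L3 left out together. All genes at that threshold were 7.89% with normexp, 6.76% with trend and robust eBayes and 7.32% without a filter. The count without overlap was 2 with normexp, against 4.26% of all genes, and 7 with these 3 fetuses left out, where 31.1% of all genes did not overlap. Of 102 recomputed differences of TAT, HPD, PIPOX, FTCD, DBT and MCCC1, 4 reversed, all of TAT: -0.24 with the mean of its probes, -0.00073 without L6, -0.022 without L3 (range -0.022 to 0.12 with 1 fetus left out) and -0.058 without L6, L9 and L3. The cause was not tested. The lowest adjusted p among them was 0.391. Direction was the same under all 17 alternatives for 15 enzymes lower in LN and for 4 higher (TDO2, SDS, DBT and MCCC1), though 4 of these alternatives (both filters, trend and robust eBayes, and the position block) left every enzyme's difference as it was, and so could turn none. Scaling to the 75th percentile, which moved the median of all genes by -0.030, turned AFMID and BCAT2 to lower in LN, and normexp turned AFMID, AGXT2 and GCSH. All members' representing probes were well above background on all 8 arrays.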
